A study of Mus musculus with 6 samples.

Results

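The translation initiation and elongation factors of mouse splenic T cells were examined as 1 gene family by name. The members are the genes whose symbol begins with Eif or Eef and a digit, which takes in the eIF2 kinases (Eif2ak genes) and the eIF4E-binding proteins (Eif4ebp genes). They were taken from probe sets that name exactly 1 gene, with the brightest probe set standing for each gene, and 61 members of 19938 genes were found. RefSeq lists 71 protein-coding mouse symbols of this form, and the other 10 were not analysed here: Eif1, Eif2s1, Eif3g, Eif3j1, Eif3j2, Eif4ebp3, Eif4g1, Eef1g, Eef1akmt4 and the Eef1akmt4-ece2 readthrough. Of these, Eif3j1, Eif3j2 and Eif4ebp3 are named by probe sets that also name another gene. The samples were 3 mice given rapamycin at 1.5 mg/kg and 3 mice given phosphate-buffered saline (PBS), each read on 1 expression array. All 6 were B6D2F1/J mice, an F1 hybrid with a B6 parent, that had received lethal irradiation and then B6 marrow depleted of T cells. The labels call the graft allogeneic, describe injection into the abdomen on alternate days up to day 10, and do not state for each mouse whether B6 spleen cells were added to the marrow, nor its age or sex. On day 10, spleen cells carrying CD3 were sorted by flow cytometry, and the labels do not say whether the sorted cells came from donor or host.

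Protein synthesis starts when the small ribosomal subunit, loaded with initiator tRNA by eIF2 and held by eIF3, binds a capped mRNA through the eIF4F complex and scans to the start codon. The elongation factors eEF1 and eEF2 then deliver each aminoacyl-tRNA and move the ribosome along. Rapamycin, bound to the immunophilin FKBP12, inhibits the kinase complex mTORC1, which normally keeps the eIF4E-binding proteins phosphorylated and so leaves eIF4E free to bind the cap. In T cells this pathway is known for raising protein synthesis when a naive cell is activated. These controls act on protein modification and on how well an mRNA is translated, and the arrays measured only RNA levels.

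Many mRNAs of the translation machinery begin with a terminal oligopyrimidine (TOP) tract, through which mTORC1 controls their translation. The 6 stretches below lie at or within 25 bases of RefSeq transcript starts (assembly GRCm38.p6) and are shown because Eef1a1, Eef2, Eif3f and Eif4b are classical TOP mRNAs, and because Eif2s3x and Eif2s3y are an X-linked and Y-linked pair. Capitals mark the pyrimidine run, and all are written on the strand of the RNA.
Eef1a1: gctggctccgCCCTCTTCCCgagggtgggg
Eef2: acgtcagcggtCTCTTCCgccgcagccgcc
Eif3f: ttctaggCTCTCTCTCTTTCTCggcaagat
Eif4b: acgccgcgccaCCCCCTCgcgctgctttac
Eif2s3x: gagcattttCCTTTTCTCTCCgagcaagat
Eif2s3y: ccacagccaCTTCCTTCTTTCgtgagcaag
The Eef1a1 stretch is chr9:78481710-78481739 on the minus strand, and that of Eef2 is chr10:81176635-81176664 on the plus strand. Eif3f lies at chr7:108934404-108934433 and Eif4b at chr15:102073772-102073801, both on the plus strand. The stretch of Eif2s3x is chrX:94212632-94212661 on the minus strand, and that of Eif2s3y is chrY:1010587-1010616 on the plus strand. With the annotated first base of the transcript as 1 and the base before it as -1, the run began at -5 in Eef1a1, at -4 in Eif3f, at -1 in Eif2s3x and at 2 in Eif2s3y. It began at 11 in Eif4b and at 16 in Eef2, whose stretch lies wholly after the annotated start. No run shown began at the annotated first base, and whether any of them is the TOP tract of its mRNA was not tested.

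A run of this kind is common at transcript starts. The search asked for a C followed directly by pyrimidines, C or T, in a run of at least 6 bases whose first base lies within 25 bases of the annotated start on either side. It was met by 23 of 63 promoter entries of the members (36.5%) and by 36.3% of all 32851 entries. On the opposite strand the shares were 38.1% and 40.9%. The table held promoters of 48 members. The difference between rapamycin and PBS had a median of 0.03 log2 over the 21 members with a run, 12 of them positive, and of -0.03 log2 over the 27 without one, 8 of them positive. The contrast was not tested, and the differences of single members had a median SE of 0.09. RNA levels of the 4 classical TOP mRNAs shown differed by 0.02 log2 for Eef1a1, 0.00 for Eef2, 0.10 for Eif3f and 0.03 for Eif4b.

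Translation factor RNAs lay close together in rapamycin and PBS mice. No member passed the test across all genes (limma with Benjamini-Hochberg adjustment, call at an adjusted p under 0.05), where 0.00502% of genes, 1 of 19938, did. The members' adjusted p values in limma lay between 0.97 and 1. At an unadjusted p under 0.05, 0 members were higher with rapamycin, against 1.6% of all genes, and 1 member was lower, Eif4e1b, against 3.07% of all genes. The groups did not overlap for 4 of 61 members (6.56%), against 9.42% of all genes. Eif4a1 and Eef1a2 had every rapamycin array above every PBS array, as had 3.14% of all genes, and Eif4e1b and Eef1aknmt had every rapamycin array below, as had 6.28%.

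The 95% intervals show how precisely the difference of each member was estimated. Values are log2 expression, so 1 unit is a factor of 2, and differences are rapamycin minus PBS throughout. The members' differences ran from -0.36 to 0.18, with a median of -0.01, the same as over all genes, and 27 were positive and 34 negative. Within 0.1 log2 of no difference lay 52 members, or 85.2%, against 67.1% of all genes. For 60 of 61 members (98.4%, against 95.5% of all genes) the whole 95% interval lay inside a 1.5-fold change in either direction, and for 35 (57.4%, against 34.9%) inside a 1.2-fold change. Each interval is for a single gene. With 3 arrays per group the precision is limited. The SEs, intervals and p values rest on the spread between mice within groups, which limma draws toward the spread over all genes.

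**Figure D1:**
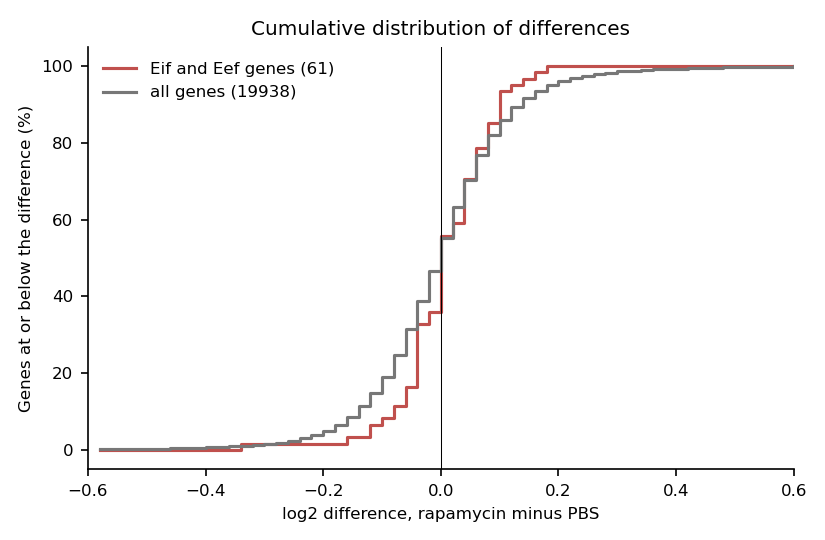
Cumulative share of genes (vertical axis, percent) at or below a log2 difference, rapamycin minus PBS (horizontal axis, steps of 0.02), for the 61 Eif and Eef genes (red) and all 19938 genes (grey). The red line climbs over a narrower range, with 85.2% of members within 0.1 log2 of 0, against 67.1% of all genes.

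**Figure D2:**
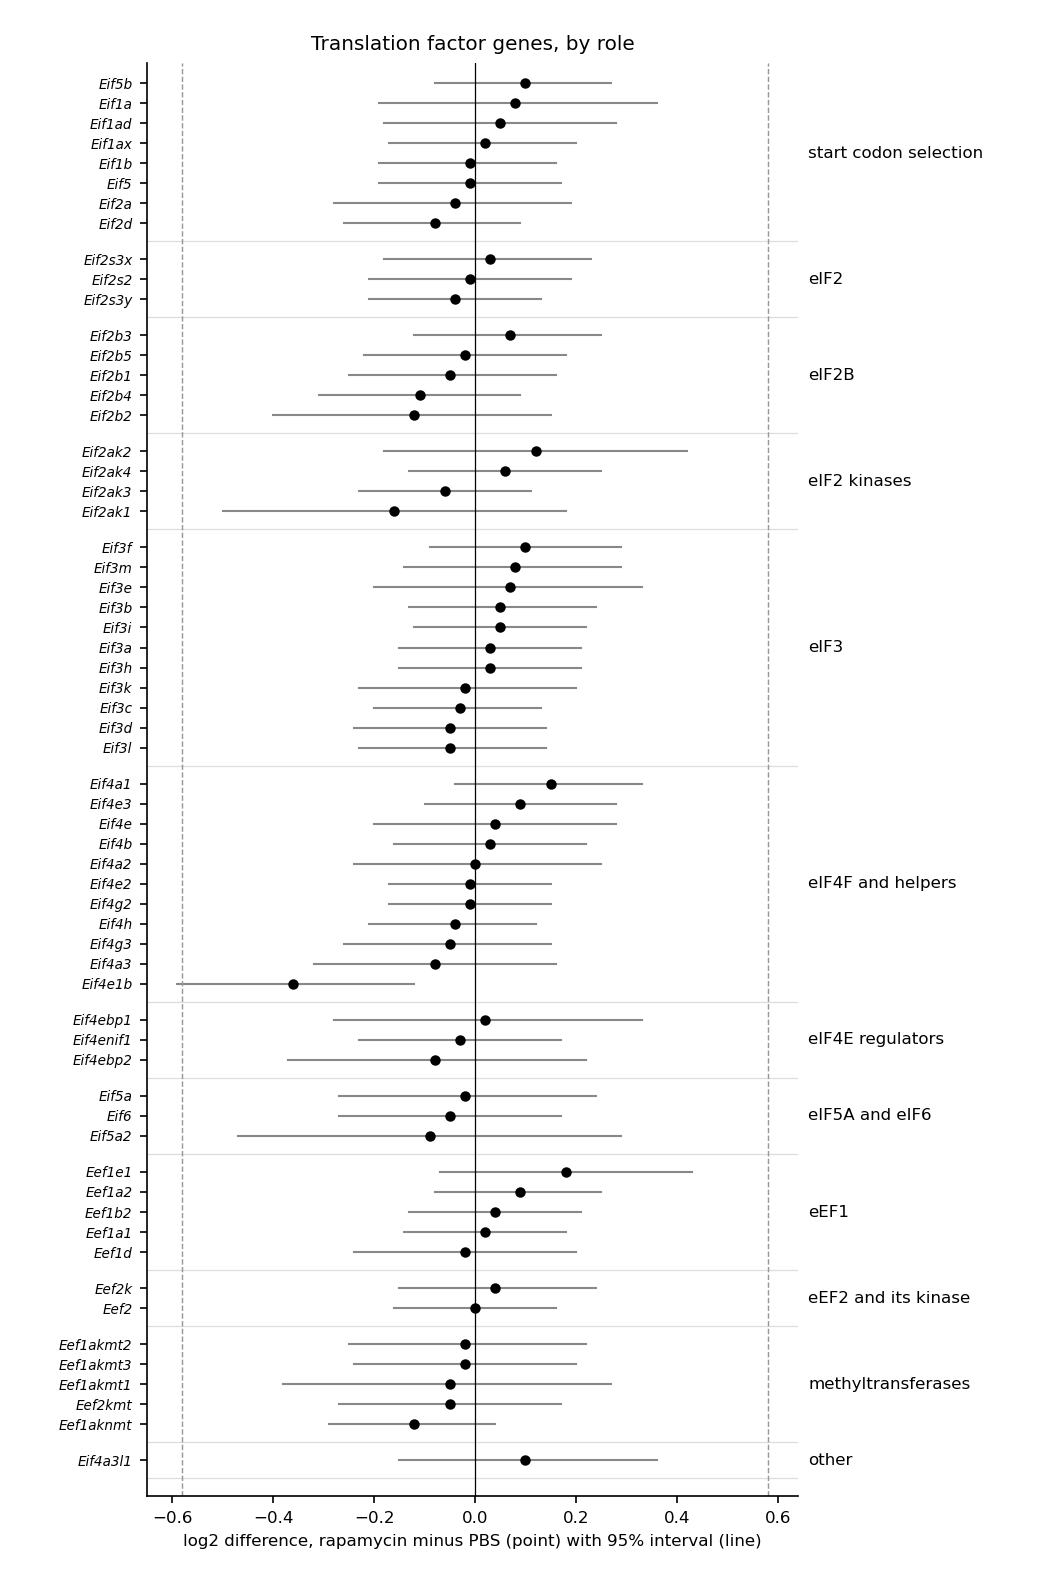
Log2 difference, rapamycin minus PBS (horizontal axis), of each member, grouped by role from top to bottom; points are differences, lines are 95% intervals and dashed lines mark a 1.5-fold change. All intervals but that of Eif4e1b cross 0, and all but that of Eif4e1b lie between the dashed lines.

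Factors of scanning and start codon selection were balanced, with 4 of 8 members positive and a median of 0.00. Without rapamycin replicate 1, the lowest array for 6 of them, 7 of the 8 were positive. Eif5b encodes the GTPase that joins the large subunit at the start codon. It measured 8.87, 8.89 and 8.81 in rapamycin mice, against 8.70, 8.85 and 8.73 in PBS mice, a difference of 0.10 (SE 0.08). The groups overlapped through PBS replicate 2, which lay above rapamycin replicate 3. Eif2d, a factor that can place initiator tRNA without eIF2, was the lowest of the group at -0.08 (SE 0.08). It measured 8.13, 8.25 and 8.13 in rapamycin mice, against 8.24, 8.22 and 8.31 in PBS mice, and the groups overlapped. The scanning factor genes Eif1a and Eif1ax differed by 0.08 and 0.02, and Eif5, the GTPase activator of eIF2, by -0.01.

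eIF2 carries the initiator tRNA, and of its subunits Eif2s2, Eif2s3x and Eif2s3y were measured. Eif2s3x, the X-linked gamma subunit, measured 11.26, 11.50 and 11.48 in rapamycin mice, against 11.35, 11.37 and 11.43 in PBS mice, a difference of 0.03 (SE 0.09). The rapamycin values spanned those of PBS. Eif2s3y, its Y-linked copy, measured 3.01, 2.99 and 2.93 in rapamycin mice, against 2.97, 3.01 and 3.07 in PBS mice. All 6 values lay far below the array medians of 6.03 to 6.17, and detection was not tested. Eif2s2, the beta subunit, differed by -0.01 (SE 0.09).

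eIF2B is the exchange factor that reloads eIF2 with GTP. Of its 5 subunit genes 4 were negative, with a median of -0.05, and all 5 intervals included 0. Eif2b4 measured 7.10, 7.24 and 7.32 in rapamycin mice, against 7.38, 7.36 and 7.26 in PBS mice, a difference of -0.11 (SE 0.09). Only rapamycin replicate 3 reached into the PBS range. Eif2b2 had the lowest difference, -0.12 (SE 0.12), and Eif2b3 the highest, 0.07. Eif2b5, the catalytic subunit, measured 8.80, 8.61 and 8.58 in rapamycin mice, against 8.67, 8.74 and 8.63 in PBS mice, and differed by -0.02 (SE 0.09). The Eif2b2 difference was -0.01 without rapamycin replicate 1 and -0.22 without rapamycin replicate 3. That of Eif2b4 was -0.05 without rapamycin replicate 1 and -0.16 without rapamycin replicate 3. Without rapamycin replicate 1, 3 of the 5 genes were negative.

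The eIF2 kinases shut down initiation under stress by phosphorylating eIF2, and 2 of the 4 were positive. Eif2ak1 encodes HRI, the haem-regulated kinase of red cell precursors. It measured 9.61, 10.04 and 10.16 in rapamycin mice, against 10.15, 9.91 and 10.24 in PBS mice, a difference of -0.16 (SE 0.15). Rapamycin replicate 1 was the lowest array. The difference was 0.00 without it and -0.27 without rapamycin replicate 3. The mean of the erythroid markers, 6 of 13 listed genes measured, was 6.33 to 6.73 in rapamycin mice and 6.13 to 6.42 in PBS mice, and their part in the Eif2ak1 values was not tested. Eif2ak2 encodes PKR, the kinase that senses double-stranded RNA and is induced by interferon, and had the highest difference of the group, 0.12 (SE 0.13). Eif2ak4 encodes GCN2, the sensor of uncharged tRNA. It measured 7.20, 7.21 and 7.24 in rapamycin mice, against 7.09, 7.29 and 7.09 in PBS mice, a difference of 0.06 (SE 0.08). The endoplasmic reticulum kinase gene Eif2ak3, encoding PERK, differed by -0.06 (SE 0.08).

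eIF3 is the large scaffold that holds the initiation complex on the small subunit. Of 11 subunit genes measured 7 were positive, with a median of 0.03 and a range from -0.05 for Eif3d, the subunit that can itself bind a cap, to 0.10 for Eif3f. Without rapamycin replicate 1, the lowest array for 7 of them, 10 of the 11 were positive. Eif3f measured 10.77, 10.94 and 10.93 in rapamycin mice, against 10.75, 10.74 and 10.85 in PBS mice (SE of the difference 0.08). The groups overlapped through rapamycin replicate 1. Eif3e measured 10.34, 10.69 and 10.76 in rapamycin mice, against 10.55, 10.47 and 10.57 in PBS mice, a difference of 0.07 (SE 0.11). Rapamycin replicate 1 lay below all PBS arrays and the other two above them. Without rapamycin replicate 1 the Eif3e difference was 0.19, with an unadjusted p under 0.05, and the smallest adjusted p of any member in limma was 0.587. Without rapamycin replicate 3 the Eif3e difference was -0.01.

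The eIF4F complex recognises the cap through eIF4E, unwinds the leader of the mRNA with the helicase eIF4A and is held together by eIF4G. Of 11 measured genes of this complex and its helpers 5 were positive, with a median of -0.01. Without rapamycin replicate 1, the lowest array for 3 of them, 4 of the 11 were positive, with a median of -0.02. Eif4e, the cap-binding protein gene, measured 10.01, 10.36 and 10.20 in rapamycin mice, against 10.07, 10.15 and 10.25 in PBS mice, a difference of 0.04 (SE 0.10). The rapamycin arrays lay on both sides of the PBS range. The other Eif4e probe sets were far dimmer, between 6.14 and 6.58 on all 6 arrays, and differed by 0.04 and 0.07. Which transcripts the brighter, chosen probe set reads was not tested. Eif4b, a helper of the helicase and a target of the S6 kinases, measured 10.80, 10.75 and 10.69 in rapamycin mice, against 10.65, 10.84 and 10.66 in PBS mice, a difference of 0.03 (SE 0.08). Eif4g2, encoding a relative of eIF4G without the eIF4E-binding site, differed by -0.01 (SE 0.07), and Eif4g3 by -0.05 (SE 0.09).

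Eif4a1, the main helicase gene, lay higher on every rapamycin array with its chosen, brightest probe set. It measured 12.16, 12.27 and 12.11 in rapamycin mice, against 11.98, 12.10 and 12.03 in PBS mice, means of 12.18 ± 0.08 and 12.04 ± 0.06 (SD, n = 3 each). The difference was 0.15 (SE 0.08, 95% interval -0.04 to 0.33), a ratio of 1.11 that did not pass the test. Its other probe sets differed by 0.13 and 0.12. The groups were apart on the first of these and overlapped on the second, where rapamycin replicate 3 at 11.45 lay under PBS replicate 2 at 11.47. Probe sets named for 1 gene can read shared sequence, so they are not replicates. Over 15 alternatives the Eif4a1 difference lay between 0.10 and 0.18. Its paralog Eif4a2 differed by 0.00 (SE 0.11) and Eif4a3, a helicase of the exon junction complex, by -0.08 (SE 0.11).

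Eif4e1b, an eIF4E paralog known from oocytes, had the lowest p among the members. It measured 5.76, 5.82 and 5.85 in rapamycin mice, against 6.38, 6.09 and 6.03 in PBS mice, means of 5.81 ± 0.04 and 6.17 ± 0.19 (SD, n = 3 each). No value overlapped, and PBS replicate 1 stood highest. The difference was -0.36 (SE 0.10, 95% interval -0.59 to -0.12), a 1.28-fold lower level, with an adjusted p of 0.97 in limma. Its other probe set measured 5.72, 5.69 and 5.81 in rapamycin mice, against 6.0, 5.66 and 5.81 in PBS mice, a difference of -0.08 (SE 0.10) with overlapping groups. Both probe sets lay near the array medians, and detection was not tested. The difference was -0.22 with the mean of both probe sets and -0.25 without PBS replicate 1.

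**Figure D3:**
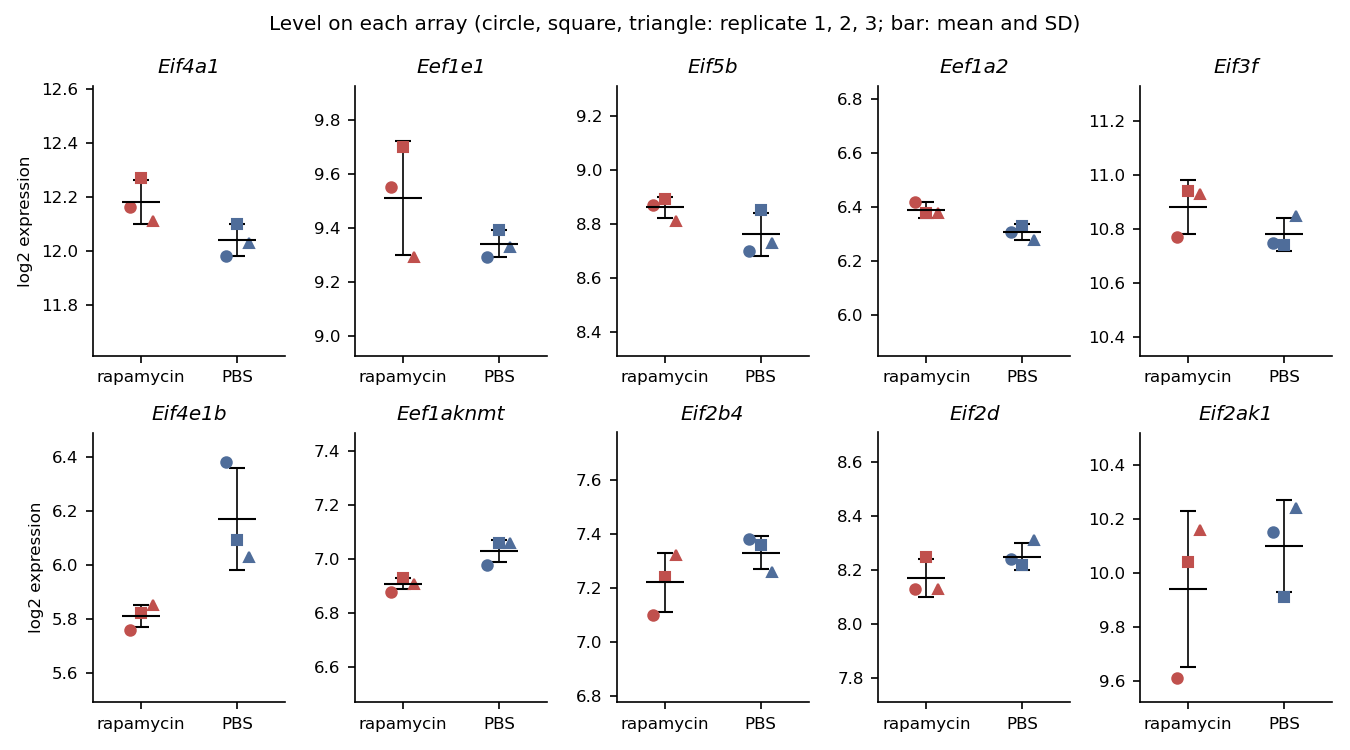
Log2 expression (vertical axis, 1 log2 unit high in each panel) on each array for the 5 members with the smallest p among positive differences (top) and among negative ones (bottom), rapamycin at the left in red and PBS at the right in blue; circle, square and triangle are replicates 1, 2 and 3, and bars are the mean and SD. Only Eif4a1, Eef1a2, Eif4e1b and Eef1aknmt have no overlap between the groups.

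**Figure D4:**
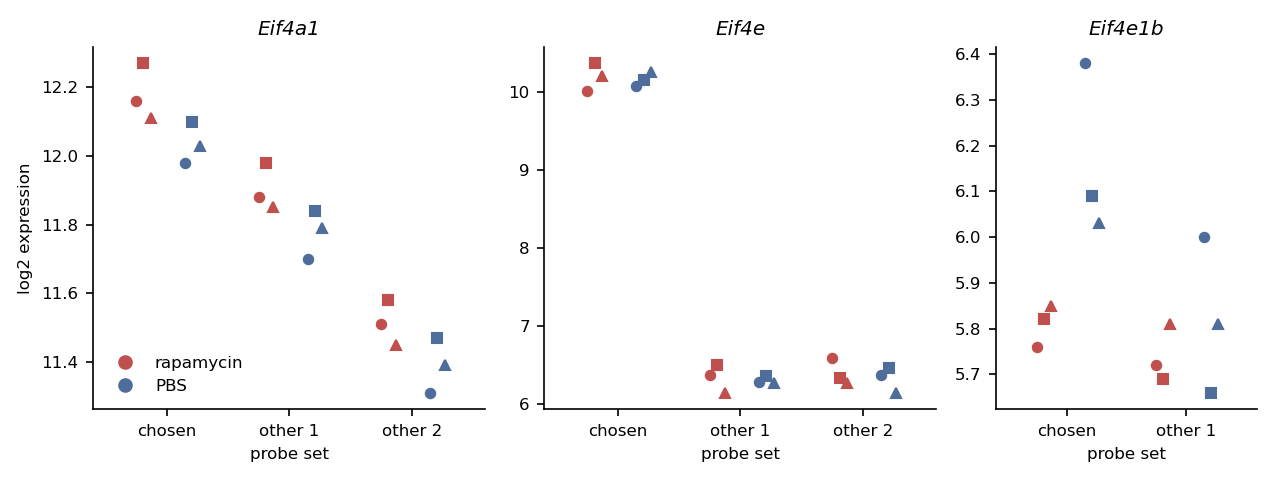
Log2 expression (vertical axis, a separate scale per panel) on each array for every probe set that names Eif4a1, Eif4e or Eif4e1b alone, with the chosen, brightest probe set at the left; red is rapamycin, blue is PBS, and circle, square and triangle are replicates 1, 2 and 3. The Eif4a1 probe sets differ by 0.12 to 0.15, whereas those of Eif4e1b differ by -0.36 and -0.08.

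The eIF4E-binding proteins are the direct mTORC1 substrates of the family, and their RNAs showed no difference beyond their spread. Eif4ebp1 measured 7.24, 7.56 and 7.80 in rapamycin mice, against 7.48, 7.59 and 7.46 in PBS mice, a difference of 0.02 (SE 0.13, 95% interval -0.28 to 0.33). The rapamycin arrays spread to both sides of PBS. Without rapamycin replicate 1 the difference was 0.17 and without rapamycin replicate 3 it was -0.11. Eif4ebp2 measured 10.08, 9.76 and 9.66 in rapamycin mice, against 10.03, 9.97 and 9.72 in PBS mice, a difference of -0.08 (SE 0.13, 95% interval -0.37 to 0.22). Rapamycin replicate 1 was the highest array for Eif4ebp2 and the lowest for Eif4ebp1. Eif4enif1, encoding the transporter 4E-T that carries eIF4E to the nucleus and to mRNA decay bodies, differed by -0.03 (SE 0.09), and its other probe set by 0.02.

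eIF5A helps the ribosome through difficult peptide bonds, and eIF6 keeps the large subunit from joining too early. All 3 genes had negative differences, and rapamycin replicate 1 was the lowest array for all 3. Without it all 3 were positive, at 0.11 for Eif5a, 0.04 for Eif5a2 and 0.01 for Eif6. Eif5a measured 12.42, 12.76 and 12.83 in rapamycin mice, against 12.70, 12.67 and 12.68 in PBS mice, a difference of -0.02 (SE 0.11). The PBS arrays lay within 0.03 of each other, while rapamycin replicate 1 lay below them and the other rapamycin arrays above. Eif6 measured 9.97, 10.19 and 10.11 in rapamycin mice, against 10.16, 10.01 and 10.24 in PBS mice, a difference of -0.05 (SE 0.09). Eif5a2, the less widely expressed paralog of Eif5a, had the widest spread within groups of any member, an SD of 0.27, and differed by -0.09 (SE 0.17).

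On their own probe sets, RNAs of the core elongation factors differed by little. Eef1a1, which delivers aminoacyl-tRNA to the ribosome, measured 13.97, 14.03 and 13.99 in rapamycin mice, against 13.97, 13.95 and 13.99 in PBS mice, a difference of 0.02 (SE 0.07, 95% interval -0.14 to 0.18). Eef2, the translocation factor, measured 13.07, 13.09 and 13.07 in rapamycin mice, against 13.08, 13.12 and 13.04 in PBS mice, a difference of 0.00 (SE 0.07, 95% interval -0.16 to 0.16). The groups overlapped for both. Eef1a1 and Eef2 were among the brightest genes measured, and whether signals this bright follow RNA levels in full was not tested. A dimmer probe set that names Eef1a1 together with Mir703 and D630045J12Rik had means 0.13 log2 apart, higher with rapamycin. Eef1b2, a nucleotide exchange subunit of eEF1, measured 12.10, 12.24 and 12.15 in rapamycin mice, against 12.12, 12.14 and 12.10 in PBS mice, a difference of 0.04 (SE 0.07). Eef2k encodes the kinase that inactivates eEF2 and is itself held down through mTORC1. It measured 6.19, 6.14 and 6.32 in rapamycin mice, against 6.22, 6.22 and 6.08 in PBS mice, a difference of 0.04 (SE 0.08), and its other probe set differed by 0.09.

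Of the 5 eEF1 genes measured, 4 were positive. Eef1e1, whose product is a scaffold of the tRNA synthetase complex, had the highest difference of all members over the 6 arrays. It measured 9.55, 9.70 and 9.29 in rapamycin mice, against 9.29, 9.39 and 9.33 in PBS mice, a difference of 0.18 (SE 0.11, 95% interval -0.07 to 0.43). Rapamycin replicate 3 lay with the PBS arrays and rapamycin replicate 2 was highest. The Eef1e1 difference was 0.084 without rapamycin replicate 2, where the highest of any member was 0.10, and 0.29 without rapamycin replicate 3. The second of these had an unadjusted p under 0.05, and the smallest adjusted p of any member in limma was then 0.999. Eef1a2, the eEF1A paralog of muscle and neurons, measured 6.42, 6.38 and 6.38 in rapamycin mice, against 6.31, 6.33 and 6.28 in PBS mice, a difference of 0.09 (SE 0.07). Its groups did not overlap although they lay close together. Eef1d differed by -0.02.

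The methyltransferases that modify eEF1A and eEF2 were negative in all 5 measured genes, with a median of -0.05 and all intervals including 0. Without rapamycin replicate 1, 2 of the 5 were negative, and Eef1akmt1, Eef1akmt2 and Eef2kmt were positive at 0.09, 0.04 and 0.04. Eef1aknmt measured 6.88, 6.93 and 6.91 in rapamycin mice, against 6.98, 7.06 and 7.06 in PBS mice, a difference of -0.12 (SE 0.07). The groups did not overlap, and over 15 alternatives the difference lay between -0.15 and -0.11. The others lay between -0.05 and -0.02. Eif4a3l1, a gene named for its likeness to Eif4a3, differed by 0.10 (SE 0.11) at levels under the array medians.

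Many members were lowest in the same mouse. Rapamycin replicate 1 was the lowest array for 30 of 61 members (49.2%), against 23.0% of all genes and 34.7% of the genes above the median level, where 55 of the members lie. The median deviation of the members from their own 6-array means was -0.07, 0.05 and 0.02 on rapamycin replicates 1 to 3, against -0.02, 0.01 and 0.01 on the PBS replicates. By role, the median on rapamycin replicate 1 reached -0.26 for eIF5A and eIF6, -0.17 for eIF2B and -0.15 for the eIF4E regulators, and was 0.07 for eEF1 and 0.01 for eIF4F and its helpers. Without that array 43 members were positive and 18 negative, with a median of 0.038, and no member passed. Leaving out the lowest rapamycin array of a gene raises its difference, so these counts and those by role follow in part from that array being low. When any other array was left out, the members' median lay between -0.018 and 0.014.

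**Figure D5:**
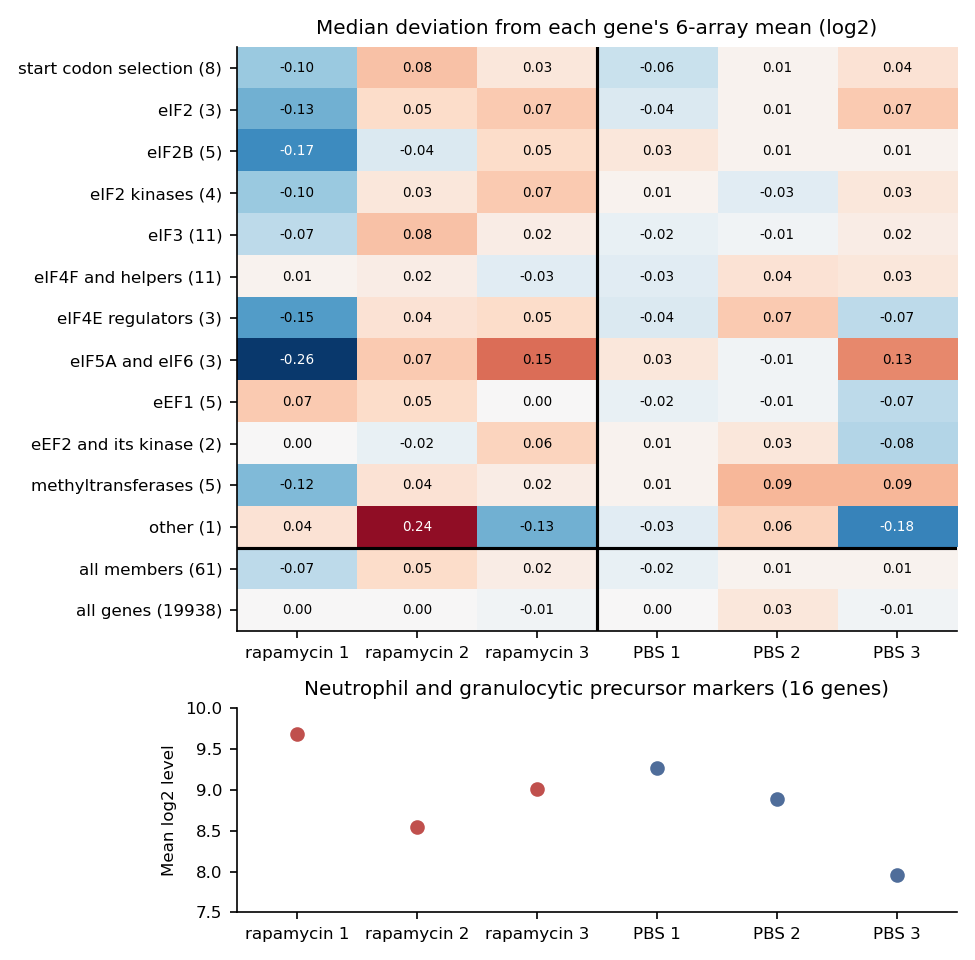
Top, median over the members of each role of the deviation from each gene's 6-array mean (log2, colour and printed value), for the 3 rapamycin arrays at the left and the 3 PBS arrays at the right, with all members and all genes in the last rows; numbers of genes are in brackets. Bottom, mean log2 level of 16 neutrophil and granulocytic precursor markers on the same arrays, highest at 9.68 on rapamycin replicate 1. Most role medians are lowest on that array, and the relation was not tested.

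Markers of other cells were examined beside those of the sorted T cells, whose Cd3e measured 12.84 ± 0.08 with rapamycin and 12.87 ± 0.05 with PBS (SD, n = 3 each). T cell markers, 9 of 11 measured, averaged 11.42 to 11.62 with rapamycin and 11.42 to 11.64 with PBS. All 16 neutrophil and granulocytic precursor markers had positive differences, with a median of 0.44. Their mean level was 9.68, 8.55 and 9.01 in rapamycin mice, against 9.26, 8.89 and 7.96 in PBS mice. Rapamycin replicate 1 was highest in these markers and was the array on which members were most often lowest. PBS replicate 1 was next at 9.26, with a median member deviation of -0.02, and PBS replicate 3 was lowest, with 0.01. Whether marker level and member level are related was not tested. With the marker mean as a covariate no member passed, the members' median difference was 0.020, and Eif4e1b had the smallest adjusted p in limma, 0.39. Markers of macrophages and monocytes, 10 of 11 measured, averaged 8.22 to 8.76 with rapamycin and 8.53 to 8.92 with PBS. Of that list 3 genes were positive and 7 negative, with a median of -0.08. Spic, a transcription factor of red pulp macrophages, measured 5.77, 5.84 and 5.5 in rapamycin mice, against 7.51, 6.70 and 6.93 in PBS mice, a difference of -1.34 (adjusted p of 0.408 in limma). C1qa, a complement gene, differed by -0.56 and the lysozyme gene Lyz2 by 0.29. B cell markers, 8 of 9 measured, averaged 5.44 to 5.55 with rapamycin and 5.48 to 5.60 with PBS. These means lay below the array medians of 6.03 to 6.17, and detection was not tested. Of the B cell markers 4 were positive and 4 negative, with a median of -0.01. Among the negative ones Cd79b, a chain of the B cell receptor, differed by -0.54 (adjusted p of 0.747 in limma). The part of macrophage and B cell transcripts in the members' values was not tested. In bulk RNA, fewer cells of a type and less RNA per cell cannot be told apart.

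Genes that connect mTORC1 to the translation factors also held no call. Of 15 measured genes of this link 8 were positive, with a median of 0.00; none passed and 1 had an unadjusted p under 0.05, as had 4.67% of all genes. That gene was Mknk2, encoding a kinase that phosphorylates eIF4E. It measured 10.51, 10.59 and 10.80 in rapamycin mice, against 10.84, 10.80 and 11.01 in PBS mice, a difference of -0.25 (SE 0.10, adjusted p of 1 in limma). Rapamycin replicate 3 reached the lowest PBS array. Pdcd4, whose product binds and blocks eIF4A, measured 9.77, 9.92 and 10.34 in rapamycin mice, against 10.41, 10.14 and 10.21 in PBS mice, a difference of -0.24 (SE 0.15). Its groups overlapped through rapamycin replicate 3. Larp1, the protein that binds TOP mRNAs, differed by 0.03 (SE 0.09).

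Neighbouring steps of translation held no call either. Among genes of poly(A) binding, recycling, release and rescue, 11 of 17 were positive with a median of 0.03, and 0 had an unadjusted p under 0.05; Paip1, a partner of the poly(A)-binding protein, differed by 0.19 (SE 0.11) and the release factor gene Gspt2 by 0.13 (SE 0.11). Of 11 integrated stress response genes 7 were negative, with a median of -0.01. Sesn2, a leucine sensor induced by ATF4, measured 7.27, 7.38 and 7.41 in rapamycin mice, against 7.77, 7.49 and 7.63 in PBS mice, a difference of -0.27 (SE 0.09, adjusted p of 0.982 in limma). Its rapamycin arrays all lay below its PBS arrays, as did those of 6.28% of all genes. It was the only gene of that list with an unadjusted p under 0.05 in limma, as had 4.67% of all genes. Nck1, encoding an adaptor that binds eIF2, differed by -0.13 (SE 0.08), and Atf4, the transcription factor whose translation rises when eIF2 is phosphorylated, by 0.08 (SE 0.09). Of 8 genes that build hypusine on eIF5A or diphthamide on eEF2, 6 were negative, with a median of -0.03, and Dph3 and Dnajc24 differed by -0.16 and -0.10.

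The members varied little from mouse to mouse. Their median SD within groups was 0.09 log2, against 0.12 over all genes and 0.11 over genes above the median level. The largest SDs belonged to Eif5a2 at 0.27, Eif2ak1 at 0.24 and Eef1akmt1 at 0.22, and the smallest to Eif4e2 and Eif4h at 0.02. Of the 8 members with several probe sets of their own, 7 had the same direction on all of them, and Eif4enif1 did not.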

How the data were processed

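Affymetrix Expression Console and RMA are named in the submitters' processing notes, with their versions and the genome build not given in the sources used here. As deposited, each of 35556 probe sets has a log2 expression value on all 6 arrays. RMA gives all arrays 1 intensity distribution, so a change shared by most genes would not be seen, and it compresses values near background. Array medians lay between 6.03 and 6.17.

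The platform's probe table gave 21789 probe sets 1 symbol and 1621 several. Of the first, 21698 matched a RefSeq gene of GRCm38.p6, with 0 symbols updated. The brightest probe set stood for each of 19938 genes. Groups and replicate numbers came from the titles, which call the mice biological replicates.

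The test was that of limma 3.58.1 under R 4.3.3 (lmFit, eBayes, group as the only term, 8.44 moderated degrees of freedom), adjusted by Benjamini-Hochberg over all genes; all p values are two-sided. The fit was checked on simulated data. Figures used Python 3.11.15 and matplotlib 3.10.9. The members, role groups and lists were chosen with earlier results of these data known. Named in full are the 5 positive and 5 negative members of smallest p and a set of 18 factors, of which Eif2s1 and Eif4g1 were not analysed here; other members are given by group, and up to 2 genes by p of each pathway list, with Larp1, Atf4, 4 marker genes, the sequences shown and some further members added after their values were seen. The alternatives changed the variance model, normalization, filter, probe set choice, pairing and covariate, and left out each array.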

Additional observations from a re-analysis of the deposited data

How the results depend on the processing

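No member passed an adjusted p of 0.05 under any of 15 alternatives, and the smallest adjusted p of a member was 0.39, for Eif4e1b with the neutrophil marker mean as a covariate. Over all genes 1 passed, against 3 with that covariate, 0 with the replicate block, and 0 to 7 when each array was left out: 7 without rapamycin replicate 1 and 0 without any other array. Members at an unadjusted p under 0.05 numbered 1, against 0 with the mean of all probe sets, 0 among genes above the median gene, a filter that removes Eif4e1b, and 1 to 3 when each array was left out: 3 without rapamycin replicate 1 (Eif1a, Eif3e and Eif4e1b), where 7.75% of all genes passed, and 2 without rapamycin replicate 3 (Eef1e1 and Eif4e1b), where 4.29% did. The members' median difference was -0.011, -0.018 to 0.038 when each array was left out (0.038 without rapamycin replicate 1), and -0.011 to 0.028 under the others.

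Of 371 values of 25 named members under the alternatives, 346 kept their sign, and 13 members kept it under all. Signs turned for Eef2 (0.008 with array medians subtracted, 0.004 with quantile normalization repeated), Eif5a (0.051 with array weights, 0.031 with the covariate) and Eif6 (0.002 with the covariate). When each array was left out, the ranges were -0.02 to 0.016 for Eef2, -0.006 to 0.081 for Eef2k, -0.271 to 0.003 for Eif2ak1, -0.086 to 0.023 for Eif2b5, -0.018 to 0.102 for Eif2s3x, -0.015 to 0.195 for Eif3e, -0.003 to 0.093 for Eif4b, -0.051 to 0.127 for Eif4e, -0.107 to 0.169 for Eif4ebp1, -0.202 to 0.009 for Eif4ebp2, -0.097 to 0.107 for Eif5a and -0.115 to 0.009 for Eif6. The cause of these turns was not tested.

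The replicate numbers gave no pairing: same-numbered arrays correlated in their deviations from the group means at r = 0.0861, -0.192 and 0.195, not every array correlated best with its own number, and with the replicate block the members' median was -0.011 and 1 member had an unadjusted p under 0.05. Signal over background limits Eif2s3y, Eif4e1b and the other dim probe sets, since detection was not tested.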

Other observations

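Several translation factor genes are read by 11 probe sets that name more than 1 gene, and these stand outside the comparison. A probe set that names Eef1a1 together with Mir703 and D630045J12Rik measured 12.37, 12.31 and 12.32 in rapamycin mice, against 12.16, 12.29 and 12.17 in PBS mice. Every rapamycin array lay above every PBS array, as for 3.14% of all genes, with means 0.13 log2 apart. The probe set of Eef1a1 alone differed by 0.02. Which of the 3 transcripts the shared probe set read was not tested. The probe sets shared by Eif3j1 and Eif3j2, subunits at the edge of eIF3, had mean differences of 0.05 and -0.01, and the one shared by Eif4ebp3 and Ankhd1 measured 7.30, 7.22 and 6.94 in rapamycin mice, against 7.21, 7.27 and 6.97 in PBS mice. The other 7 had mean differences from -0.01 to 0.04, with overlapping groups. These differences have no test.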
